A study of Mus musculus with 11 samples.

Results

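The receptors and signal carriers through which cells sense interleukin-33 (IL-33), IL-4, IL-13 and thymic stromal lymphopoietin (TSLP), together with the genes of IL-4 and IL-13 themselves, were followed in eosinophils sorted from mouse blood. The 10 genes were taken by symbol from the deposited table of read counts, and all 10 were found among its 55486 genes. They are Il1rl1 and Il1rap (the IL-33 receptor), Il4ra, Il13ra1 and Il2rg (the receptors of IL-4 and IL-13), Crlf2 and Il7r (the TSLP receptor), the transcription factor gene Stat6, and the cytokine genes Il4 and Il13. The treated group was 7 FVB/N mice given cisplatin, a DNA-crosslinking drug, with antibodies to the checkpoint receptors PD1 and CTLA4. The control group was 4 FVB/N mice given control antibody. All 11 mice had metastatic disease from mammary tumours, and blood was drawn by heart puncture at day 21 of treatment. Their age is not given in the sources used here. The sort kept live cells with high side scatter that were CD45+, CD11b+ and F4/80+, CD3- and low in Ly6g, and RNA was read by Smart-seq2, a full-length protocol for small RNA amounts. Each mouse gave 1 library, and the comparison asks how the 3-agent treatment altered these cells relative to control antibody.

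IL-33 and TSLP are alarm cytokines released by epithelial and stromal cells, and IL-4 and IL-13 are the cytokines of type 2 immunity. IL-33 binds ST2, the product of Il1rl1, which pairs with the accessory chain encoded by Il1rap and signals through MyD88. IL-4 binds the IL-4 receptor alpha chain (Il4ra), which pairs either with the common gamma chain (Il2rg, the type I receptor) or with the IL-13 receptor alpha 1 chain (Il13ra1, the type II receptor, which IL-13 also uses), and both pass the signal to STAT6. TSLP binds the chain encoded by Crlf2 together with the IL-7 receptor alpha chain (Il7r). Eosinophils are known to respond to IL-33, and mouse eosinophils are known to carry Il4 transcripts before they are stimulated.

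The libraries held 3733156 to 8016658 counts, with the fewest in control 3 and control 4. In those same libraries the 4 haemoglobin genes took 28.2% and 20.1% of counts, against 0.165% to 4.42% in the other 9. All 12 genes of the eosinophil marker list had counts in every library, except Epx, which had 0 counts in treated 3. The sum of the 12 ran from 3203 to 10803 CPM (counts scaled to 1000000 per library) with treatment and from 6624 to 9591 CPM without it. The identifiers in the table header begin with 19 for every treated and 20 for every control library, so anything these digits mark cannot be told apart from the treatment. Unless stated otherwise, CPM of genes and of marker sums are TMM-scaled, by a method that corrects for a few very abundant genes, and a bulk level cannot tell fewer cells of a type from less RNA per cell.

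The promoters of 3 members are shown: Il4 and Il13, which are neighbours that differ widely in level, and Il1rl1. Both Il1rl1 and Il4 have 2 starts, and of Il4 the window at the internal start is described but not printed. A link between these sequences and the levels was not tested. RefSeq (GRCm38.p6) gave 12 promoter windows for the 10 genes, and the 250 bases before each start were searched on both strands. The motifs were GATA preceded by A or T and followed by A or G, which GATA factors of the eosinophil lineage bind, and TTCNNNNGAA and TTCNNNGAA, the spacings bound by STAT6 and by other STAT factors. Capitals mark the matches.

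Il1rl1, first start, chr1:40429320-40429569, plus strand: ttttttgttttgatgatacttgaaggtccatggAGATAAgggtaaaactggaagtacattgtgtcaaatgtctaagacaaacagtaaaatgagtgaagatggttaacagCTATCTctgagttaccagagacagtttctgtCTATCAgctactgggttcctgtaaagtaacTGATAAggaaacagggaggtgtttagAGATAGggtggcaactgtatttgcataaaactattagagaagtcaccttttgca

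Il1rl1, second start, chr1:40439379-40439628, plus strand: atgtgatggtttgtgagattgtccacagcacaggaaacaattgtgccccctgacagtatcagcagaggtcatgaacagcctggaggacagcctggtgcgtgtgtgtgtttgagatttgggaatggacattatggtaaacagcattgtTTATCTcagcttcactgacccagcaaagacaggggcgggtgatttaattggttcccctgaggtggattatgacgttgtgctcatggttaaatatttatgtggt

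Il4, chr11:53618666-53618915, minus strand: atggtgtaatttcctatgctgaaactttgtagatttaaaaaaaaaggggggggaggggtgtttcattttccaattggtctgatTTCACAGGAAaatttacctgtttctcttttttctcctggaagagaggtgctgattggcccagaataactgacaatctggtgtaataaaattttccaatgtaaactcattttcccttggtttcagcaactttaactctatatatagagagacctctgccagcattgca

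Il13, chr11:53634703-53634952, minus strand: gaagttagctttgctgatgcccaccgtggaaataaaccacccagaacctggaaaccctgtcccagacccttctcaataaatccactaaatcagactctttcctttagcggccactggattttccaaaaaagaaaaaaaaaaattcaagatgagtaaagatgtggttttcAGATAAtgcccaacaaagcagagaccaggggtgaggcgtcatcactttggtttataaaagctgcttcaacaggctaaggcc

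The first window of Il1rl1 held 5 GATA matches, the second 1. Of 32851 promoter windows of this length, 26.5% held at least 1 such match and 0.0426% held 5 or more. The Il4 window held 1 match to TTCNNNNGAA, as did 5.85% of all windows, and no GATA match, while the window at a second, internal start of Il4 held 1 GATA match. The Il13 window held 1 GATA match. The windows of Il1rap, Il4ra, Il13ra1, Il2rg, Crlf2 and Stat6 held none of the 3 motifs, and that of Il7r held 1 match to TTCNNNGAA, found in 7.02% of all windows. These are matches of letters only, and the counts, which are per gene, do not tell which start was used.

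Per kilobase of exon, Il4 had the highest mean level of the 10 genes and Il13 the lowest. The means over the 11 libraries, in CPM per kilobase, were 117 ± 50.9 (SD, n = 11) for Il4, 83.1 ± 32.9 for Stat6, 47.6 ± 21.3 for Il2rg, 19.2 ± 13.2 for Il1rl1, 16.7 ± 15.7 for Il13ra1, 8.73 ± 2.27 for Crlf2, 5.42 ± 4.03 for Il4ra and 3.09 ± 2.18 for Il1rap. Il7r and Il13 lay far below, at 0.0457 ± 0.152 and 0.0393 ± 0.0714. The order held within most single libraries at the top, with Il4 above Stat6 in 8 of 11, Stat6 above Il2rg in 10 and Il2rg above Il1rl1 in 9. In the middle it did not: Il1rl1 lay above Il13ra1 in 5 of 11 libraries and Il13ra1 above Crlf2 in 6, so these neighbours did not differ beyond their spread. Crlf2 lay above Il4ra in 9 libraries and Il4ra above Il1rap in 7, while Il1rap lay above Il7r in all 11. Among 11380 tested genes with a known exon length, Il4 ranked 410 from the top on this scale and Il1rap ranked 7031. Lengths are of all annotated exons joined, which understates genes with long alternative ends such as Il1rap (11360 bases of exon).

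**Figure D1:**
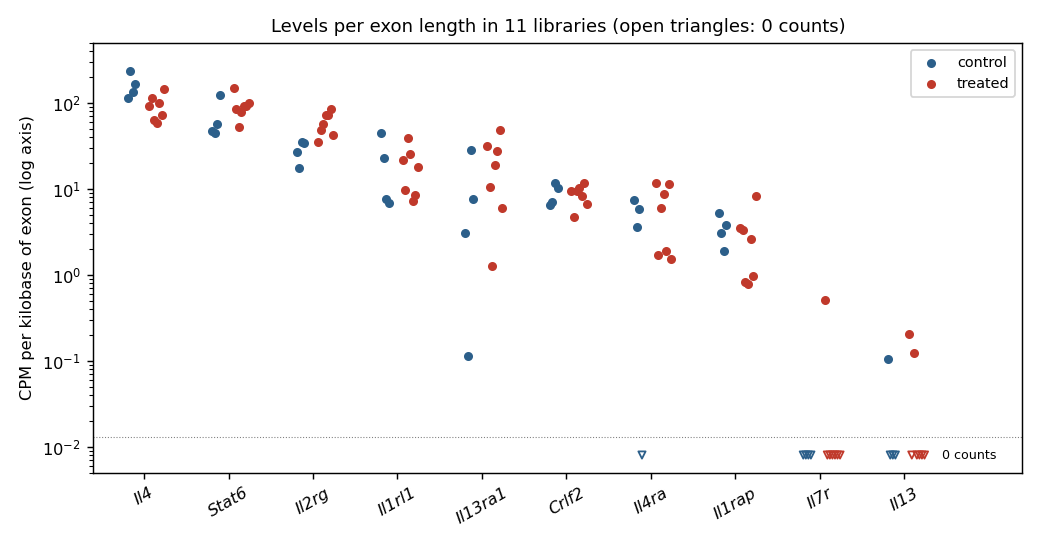
Level of each of the 10 genes in CPM per kilobase of exon (log axis) in the 4 control and 7 treated libraries, with 1 point per library and open triangles for 0 counts. Il4 and Stat6 are at the top, Il13ra1 spreads widest among the genes detected in all 11 libraries, and Il7r and Il13 are at 0 in 10 and 8 of 11 libraries.

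Between treated and control libraries, none of the members passed the test. Of the 10 genes 8 had enough counts to be tested, and edgeR's quasi-likelihood test with Benjamini-Hochberg adjustment over 11389 genes called 0 of these higher and 0 lower, where it called 0% of all genes in each direction. Il2rg and Il4 had an unadjusted p under 0.05 (2 of 8, against 6.82% of all tested genes). DESeq2, which called 0.441% of its 12933 genes higher and 0.17% lower, also called 0 members, as did limma-voom. The 8 fold changes were split evenly, 4 above and 4 below 0, where 51.8% of all tested genes lay above 0. The median of the 8 was 0.21 on the log2 scale, against 0.03 over all tested genes. Il2rg was the only member whose treated libraries all lay above the controls, which held for 0.509% of tested genes. No member had all treated libraries below the controls (0.43% of tested genes).

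**Figure D2:**
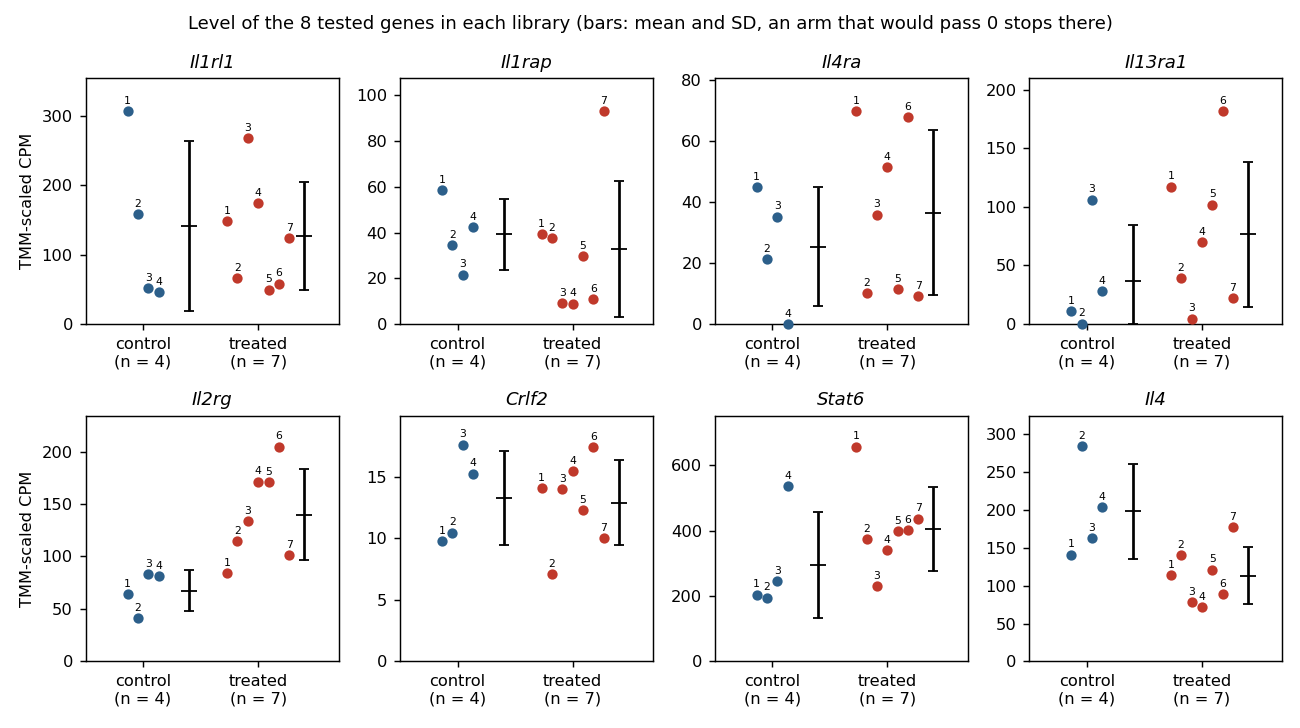
TMM-scaled CPM of the 8 tested genes in each library, with replicate numbers beside the points and the mean ± SD beside each group (n = 4 control, n = 7 treated). The groups are apart only for Il2rg, where the lowest treated library (84.2) is just above the highest control (83.3).

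The ligand-binding chain of the IL-33 receptor, Il1rl1 (ENSMUSG00000026069, chromosome 1, 40429570 to 40465415, GRCm38), was present in every library. Its level was 308, 158, 52.1 and 46.5 CPM in control 1 to control 4, and in the treated group it ran from 49.7 over a median of 124 to 268 CPM. The groups covered nearly the same range, and the 2 controls with the lowest values were the ones rich in haemoglobin counts. The log2 fold change was -0.16 ± 0.55 (SE; adjusted p = 0.978, edgeR). It turned to 0.56 without control 1 and went to -0.85 without control 3 and control 4. GENCODE M21 lists 5 coding transcripts of Il1rl1 with 3 coding lengths, the longest of 1701 bases. Since the gene also makes a soluble form of ST2 that acts as a decoy, and counts are per gene, the share of membrane receptor is not known here.

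The accessory chain Il1rap (ENSMUSG00000022514, chromosome 16, 26581704 to 26730117), shared with the IL-1 receptor, had 58.6, 34.4, 21.6 and 42.5 CPM in control 1 to control 4. Treated libraries ran from 8.97 over a median of 29.7 to 93.1 CPM. Treated 3, treated 4 and treated 6 (9.27, 8.97 and 11.1 CPM) lay below every control, and treated 7 lay above them all. The log2 fold change was -0.27 ± 0.60 (SE; adjusted p = 0.967, edgeR). Leaving out 1 library took it from -0.80 (without treated 7) to -0.0033 (without control 1). Per kilobase, Il1rl1 lay above Il1rap in all 11 libraries, by a ratio with a median of 6.20 in treated and 5.78 in control libraries, up to 47.7 in 1 treated library.

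Downstream of this receptor, the fixed list of IL-33 signalling genes had 15 of 16 members tested, and 0 passed in either direction. In this list 13 lay above and 2 below 0 (median log2 fold change 0.20), where 51.8% of all tested genes lay above 0. Its most abundant members were Ikbkb, a kinase of the NF-kB pathway, at 308 ± 61.1 CPM with treatment (SD, n = 7) and 234 ± 24.8 CPM with control antibody (SD, n = 4), and Myd88, the adaptor, at 239 ± 104 and 237 ± 61.0 CPM. The smallest p-value in the list belonged to Irak3, an inhibitory kinase of the pathway named here after its values were seen, at 103 ± 41.6 and 53.2 ± 12.9 CPM (log2 fold change 0.95 ± 0.32, SE; unadjusted p = 0.0100, adjusted p = 0.626, edgeR). Il33 itself had 0 counts in all 11 libraries. Among other chains of the IL-1 receptor family, Il18rap, of the IL-18 receptor, was detected in all 11 libraries (59.2 ± 33.4 and 39.4 ± 14.1 CPM). Il1r1 had 0 counts throughout and the decoy receptor Il1r2 was detected in 2 libraries. Of this list, 3 of 7 genes were tested and 0 called (2 above, 1 below 0).

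Of the receptors for IL-4 and IL-13, the common gamma chain Il2rg (ENSMUSG00000031304, chromosome X, 101264378 to 101268255) showed the clearest separation of the groups. Its level was 63.8, 41.6, 83.3 and 81.1 CPM in control 1 to control 4, and 84.2, 114, 134, 171, 171, 205 and 101 CPM in treated 1 to treated 7. All 7 treated libraries lay above all 4 controls, although treated 1 exceeded control 3 by less than 1 CPM. The means were 140 ± 43.6 CPM (SD, n = 7) and 67.5 ± 19.3 CPM (SD, n = 4), with a log2 fold change of 1.06 ± 0.29 (SE), or 2.08-fold. This was rank 43 by p-value of 11389 genes (unadjusted p = 0.00286, adjusted p = 0.626, edgeR; adjusted p = 0.113, DESeq2).

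The separation of Il2rg depended a little on how libraries were scaled. With median-ratio size factors the lowest treated library fell among the controls (84.4 against 93.3 CPM, with size factors rescaled to the mean library total) and 6 of 7 treated libraries stayed above them, while with CPM of the library total all 7 did (85.1 against 74.8 CPM). Header identifiers carry the letters KDV in treated 1 and the controls, and VIS in treated 2 to treated 7. With these letters as a covariate, which leaves treated 1 against the controls, the log2 fold change of Il2rg was 0.32 (unadjusted p = 0.496, edgeR), so the letters and the treatment cannot be told apart for the other 6 treated mice. Il2rg is made by most lymphocytes and by myeloid cells. B cell markers summed to 1400 to 6017 CPM with treatment and 813 to 2867 CPM with control antibody. T cell markers summed to 26.7 to 98.4 and 18.9 to 63.7 CPM, and monocyte and macrophage markers to 3508 to 17535 and 1675 to 20205 CPM. Each of the 11, 13 and 15 markers had counts in at least 1 library, though Cd4, Cd8a and Bcl11b in only 2. Of 11 tested B cell markers 10 lay above and 1 below 0 (median log2 fold change 1.30). Of 7 tested T cell markers it was 3 and 4 (median -0.38). Of 15 monocyte and macrophage markers it was 11 and 4 (median 0.66), and 0 of all these were called. The part of these cells in the Il2rg level was not tested. An annotated gene, Gm20489, overlaps exons of Il2rg on the same strand and had 0 counts.

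The shared alpha chain Il4ra (ENSMUSG00000030748, chromosome 7, 125552120 to 125579474) varied widely within both groups. It had 44.9, 21.4, 35.3 and 0 CPM in control 1 to control 4, where the 0 counts of control 4 allow a level of up to 1.09 CPM. In treated 1 to treated 7 it had 69.8, 10.3, 35.9, 51.5, 11.4, 68.0 and 9.05 CPM. Treated libraries thus lay both above and within the control range, with treated 2, treated 5 and treated 7 near 10 CPM and the other 4 at 35.9 CPM or more. The log2 fold change was 0.52 ± 0.87 (SE; adjusted p = 0.952, edgeR). Leaving out 1 library took it from 0.12 (without control 4) to 0.96 (without control 1).

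Of the tested members detected in every library, the widest spread was that of Il13ra1 (ENSMUSG00000017057, chromosome X, 36112110 to 36171259), the partner chain of the type II receptor. Control 1 to control 4 stood at 11.3, 0.424, 106 and 28.0 CPM, and treated 1 to treated 7 at 117, 39.0, 4.71, 69.6, 102, 181 and 22.2 CPM. The lowest value rested on 3 counts and the highest on 1083, a 427-fold range in level over the 11 libraries. The groups overlapped, since control 3 exceeded 5 of the 7 treated libraries. The means were 76.6 ± 61.7 and 36.5 ± 47.8 CPM, and the log2 fold change was 1.09 ± 1.08 (SE; adjusted p = 0.926, edgeR). Without control 2 it was 0.68, without control 3 it was 2.61 (unadjusted p = 0.0549), and without control 3 and control 4 it was 3.73 (unadjusted p = 0.0346, adjusted p = 0.553, edgeR).

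Monocytes and macrophages also make Il13ra1, and each of their 15 markers had counts in at least 1 library. The markers summed to 3102, 1675, 20205 and 4911 CPM in control 1 to control 4 and to 6219, 6104, 7615, 8658, 10900, 17535 and 3508 CPM in treated 1 to treated 7. Both Il13ra1 and the sum were lowest in control 2, while Il13ra1 was highest in treated 6 and the sum in control 3 (on library totals, without TMM, the sum was highest in treated 6). Single markers differed: the complement genes C1qa, C1qb and C1qc were highest in treated 3 (176, 488 and 316 CPM), where Il13ra1 was at its lowest treated value of 4.71 CPM. The genes most like Il13ra1 in pattern over the 11 libraries, of 7745 compared, were Trem3 (Pearson r 0.969, Spearman rho 0.955), a receptor of monocytes and macrophages, and Ace (r 0.952, rho 0.909), the angiotensin-converting enzyme. Neutrophil markers, 12 in all, summed to 4849 to 14377 CPM with treatment and 5862 to 16327 CPM with control antibody. Of these Retnlg was the most abundant, at 9271 ± 3699 CPM (SD, n = 7) and 10261 ± 4704 CPM (SD, n = 4). The part of neutrophils or of monocytes and macrophages in the Il13ra1 level was not tested. Per kilobase, Il2rg lay above Il13ra1 in all 11 libraries, with a median ratio of 3.83 in treated (range 1.12 to 44.3) and 6.65 in control libraries (range 1.22 to 152).

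Stat6 (ENSMUSG00000002147, chromosome 10, 127642986 to 127660957), the factor activated by both receptors, was abundant throughout. It had 204, 196, 247 and 536 CPM in control 1 to control 4 and ran from 231 over a median of 399 to 657 CPM in treated libraries. Control 1 to control 3 lay close together and below 6 of the 7 treated libraries, and control 4 lay above all treated libraries but treated 1. The log2 fold change was 0.46 ± 0.32 (SE; adjusted p = 0.861, edgeR). Without control 2 it was 0.31, without control 4 it was 0.93 (unadjusted p = 0.00759, adjusted p = 0.702), and with an offset for exon length and GC content it was 0.06. The gene Nab2 overlaps exons of Stat6 on the opposite strand and had 225 counts in all, and how strand was handled in counting is not stated in those sources. Reads in the overlap may have been shared or dropped.

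**Figure D3:**
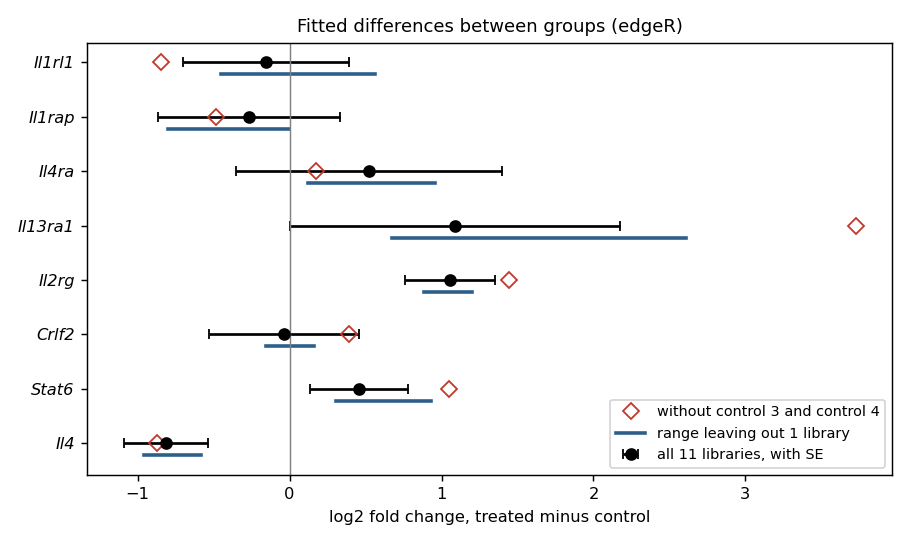
Log2 fold change (treated minus control) of the 8 tested members by edgeR with its SE, the range over the 11 fits that leave out 1 library, and the value without control 3 and control 4. Il1rl1 and Crlf2 change sign when single libraries are left out and the other 6 genes do not, and Il13ra1 and Stat6 move from 1.09 to 3.73 and from 0.46 to 1.05 when both controls are dropped.

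In the list of IL-4 and IL-13 signalling genes, 11 of 13 were tested and 0 passed (8 above and 3 below 0, median 0.27). The most abundant were Ptpn6, which encodes the phosphatase SHP-1, at 1113 ± 276 CPM with treatment (SD, n = 7) and 1047 ± 157 CPM with control antibody (SD, n = 4), and Jak1, a kinase bound to these receptors, at 569 ± 149 and 470 ± 80.6 CPM. Jak3, the kinase that binds the common gamma chain, was low at 7.32 ± 6.45 and 6.38 ± 6.09 CPM. Jak2 had the smallest p of the list and is named for it (81.0 ± 26.8 and 39.2 ± 23.0 CPM; unadjusted p = 0.0159, adjusted p = 0.626, edgeR). The decoy receptor Il13ra2 had 0 counts in all 11 libraries.

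Genes listed as targets of STAT6 did not pass the test either, with 14 of 16 tested and 0 called. Their log2 fold changes were above 0 for 12 and below 0 for 2, with a median of 0.73, where 51.8% of all tested genes lay above 0. Retnla, a secreted protein of type 2 responses, averaged 1655 ± 2897 CPM with treatment and 1336 ± 1622 CPM with control antibody, and Alox15, a lipoxygenase, at 1324 ± 541 and 938 ± 179 CPM. Of the 16 targets, Alox15, Ear2 and Ear6 (log2 fold changes 0.50, -0.17 and -0.12) are also in the eosinophil marker list. Cd209a is also in the dendritic cell marker list. Several others (Chil3, Arg1, Mrc1, Ccl24, Mgl2) are made by macrophages, and of the 15 monocyte and macrophage markers 11 lay above and 4 below 0 with 0 called (median log2 fold change 0.66). Among them Lyz2, the most abundant, was at -0.02, and C1qc, named after its values were seen, ran from 0.864 CPM in treated 1 to 316 CPM in treated 3 and from 0 to 2.28 CPM in the controls. The part of macrophages in the target levels was not tested.

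The TSLP receptor was represented by 1 of its 2 chains. Crlf2 (ENSMUSG00000033467, chromosome 5, 109554709 to 109558993), the TSLP-binding chain, was the steadiest member across the 11 libraries. It had 9.77, 10.5, 17.6 and 15.3 CPM in control 1 to control 4 and ran from 7.11 over a median of 14.0 to 17.4 CPM in treated libraries, a 2.48-fold range. The groups overlapped, and the log2 fold change was -0.04 ± 0.49 (SE; adjusted p = 0.996, edgeR).

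The partner chain Il7r (ENSMUSG00000003882, chromosome 15, 9505788 to 9530176) had 19 counts in treated 1 (2.35 CPM) and 0 in the other 10 libraries. A count of 0 allows up to 0.354 to 0.503 CPM in treated 2 to treated 7 and 0.381 to 1.20 CPM in the controls, counting error only. In treated 1 the T cell markers, whose cells carry Il7r, summed to 33.0 CPM, within the range of the other treated libraries (26.7 to 98.4). Tslp was detected in 4 treated libraries with 15 counts in all, and Il7 in control 1 with 54 counts. Of the 6 genes in the list of TSLP and IL-7 signalling, 4 were tested and 0 called (2 above, 2 below 0, median -0.10), among them Stat3 at 256 ± 61.1 CPM with treatment and 179 ± 26.6 CPM with control antibody and Stat5b at 81.8 ± 30.6 and 73.5 ± 12.9 CPM. Of the other chains that pair with the common gamma chain, 4 of 5 were tested and 0 called (3 above, 1 below 0). Il15ra stood at 15.8 ± 6.16 and 3.30 ± 6.60 CPM and Il21r at 5.88 ± 7.75 and 17.8 ± 28.9 CPM. Among the controls, Il15ra had counts only in control 1 (13.2 CPM), and Il21r only in control 1 (10.7 CPM) and control 3 (60.5 CPM).

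**Figure D4:**
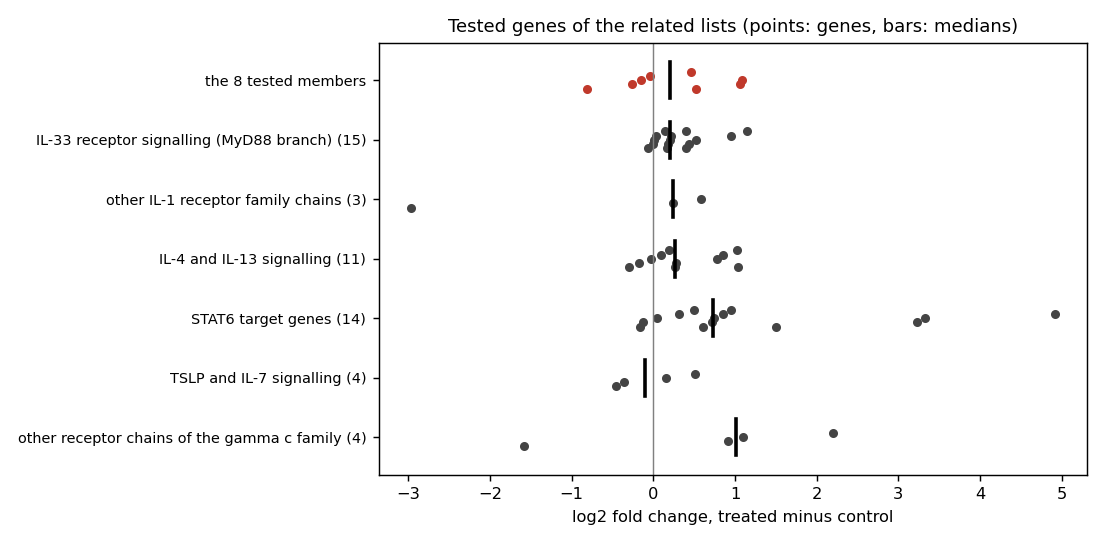
Log2 fold changes (treated minus control) of the tested members and of the tested genes in 6 related lists, 1 point per gene, with the number tested in brackets and a bar at each median. The medians are 0.21 for the members, 0.20 for IL-33 signalling, 0.27 for IL-4 and IL-13 signalling and 0.73 for STAT6 targets, and 0 of these genes passed the test.

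Of the cytokine genes, Il4 was abundant and Il13 close to absent, although they lie 12654 bases apart on chromosome 11 (Il4, ENSMUSG00000000869, at 53602982 to 53618669, and Il13, ENSMUSG00000020383, at 53631324 to 53634702). Il13 had 2 counts in treated 1, 1 in treated 3, 1 in control 1 and 0 elsewhere. Il4 had 408 counts or more in every library. The other type 2 cytokines of the list were nearly silent, with 0 counts of Il5, Il9, Il25, Il31, Areg and Il10 in all 11 libraries and 96 counts of Il6 in 5 of them.

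Il4 had 141, 285, 163 and 204 CPM in control 1 to control 4 and 114, 141, 78.3, 71.4, 121, 88.6 and 177 CPM in treated 1 to treated 7. All treated libraries but treated 7 lay below every control, although treated 2 was just below control 1 (140.9 against 141.3 CPM). Treated 7 lay above control 1 and control 3. The means were 113 ± 37.6 CPM (SD, n = 7) and 198 ± 63.1 CPM (SD, n = 4), with a log2 fold change of -0.81 ± 0.28 (SE), so the control level was 1.76-fold that of the treated group. The difference did not pass the test (unadjusted p = 0.0109, adjusted p = 0.626, edgeR; adjusted p = 0.200, DESeq2). With CPM of the library total, in which haemoglobin counts lower the other genes of control 3 and control 4, 3 of 7 treated libraries lay below every control. Leaving out 1 library took the log2 fold change from -0.96 (without treated 7) to -0.58 (without control 2). With the identifier letters as a covariate, which leaves treated 1 against the controls, it was -0.80. The letters and the treatment cannot be told apart for treated 2 to treated 7.

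Basophils and mast cells also make Il4 and carry Il1rl1. All 13 of their markers had counts in some library, and the sum ran from 21.0 to 669 CPM with treatment and from 16 to 207 CPM with control antibody. Of these markers Mcpt8, Fcer1a and Ms4a2 were low, with 25, 20 and 30 counts over all 11 libraries. Control 3 held 6.81 CPM of Mcpt8 and 11.2 CPM of Ms4a2. Hdc was higher, with 2316 counts in all and 188 CPM in control 3. Treated 4 held the 669 CPM, with 377 CPM of the mast cell protease gene Cpa3 and 158 CPM of Tpsb2. It had 71.4 CPM of Il4, the lowest of all libraries, and 174 CPM of Il1rl1, which only treated 3 exceeded in the treated group. Control 3 was next, at 207 CPM of markers, with 163 CPM of Il4 and 52.1 CPM of Il1rl1. The part of these cells in either level was not tested.

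Within the treated group, Il4 and Il1rap moved together. In treated 1 to treated 7 Il1rap stood at 39.4, 37.4, 9.27, 8.97, 29.7, 11.1 and 93.1 CPM, so the libraries with the most and the least of it were also those with the most and the least Il4 (treated 7 and treated 4). The Pearson correlation of their log2 CPM over the 7 treated libraries was 0.969 (2-sided exact permutation p = 0.00159, adjusted p = 0.0444 over 28 pairs of members) and 0.944 without the 2 libraries farthest from the median of Il1rap. The Spearman rho was 0.893 (exact permutation p = 0.0123, adjusted p = 0.269), which did not pass the adjustment. Of the other 27 pairs none passed it by either measure. The lowest adjusted p of those was 0.0889 (exact permutation, n = 7), for Il4ra with Crlf2 (Pearson r 0.829). Over all 11 libraries the correlation of Il1rap with Il4 was 0.715, and over the 6 treated libraries with the identifier letters VIS, a split looked at after the data were seen, it was 0.987. In treated 1 to treated 7 eosinophil markers summed to 10803, 7411, 3203, 5665, 8479, 5909 and 10736 CPM, and the 3 libraries with the lowest sums (treated 3, treated 4 and treated 6) were those with the least Il1rap and Il4. The part of eosinophil content in this relation was not tested. The permutation p takes no account of cell content that the libraries share. How many other pairs of tested genes correlate as highly was not computed.

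**Figure D5:**
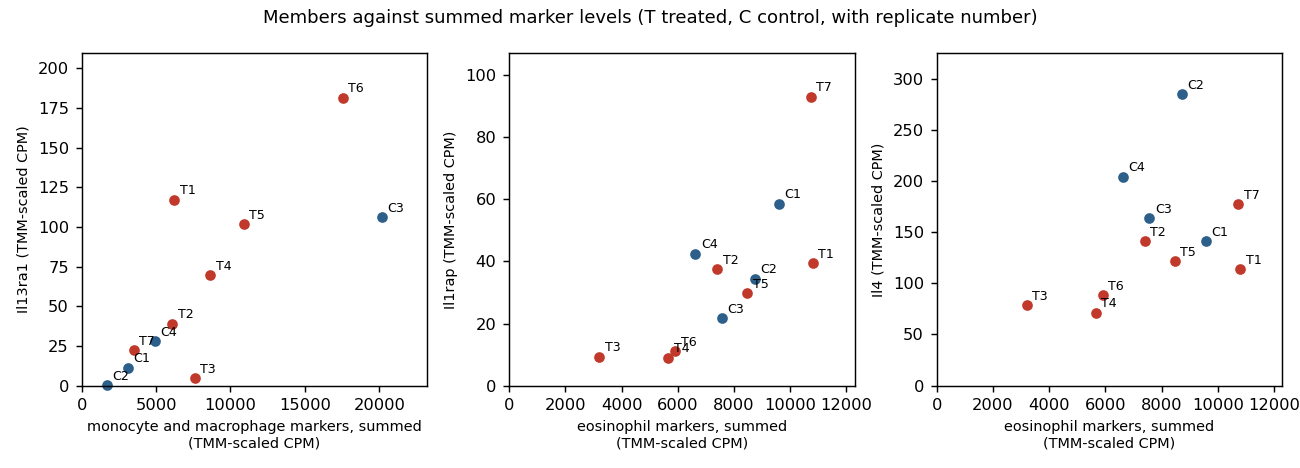
TMM-scaled CPM of Il13ra1 against the summed monocyte and macrophage markers, and of Il1rap and Il4 against the summed eosinophil markers (also TMM-scaled CPM), 1 point per library. Il13ra1 and the monocyte markers are both lowest in control 2, while Il13ra1 is highest in treated 6 and the markers in control 3, and treated 3, treated 4 and treated 6 are low in eosinophil markers, Il1rap and Il4.

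By pattern over the 11 libraries, other members resembled genes of varied kind, given as descriptions of these libraries, which share depth and cell content. For Il1rl1 the closest were Gas7 (Pearson r 0.909, Spearman rho 0.945) and Wnk1 (r 0.891, rho 0.845). For Il1rap they were Tada3 (r 0.911, rho 0.927) and Ctse (r 0.910, rho 0.864), and for Il4 they were Polr2e (r 0.931, rho 0.909) and Pex16 (r 0.904, rho 0.873). Il2rg was closest to Ly6e (r 0.939, rho 0.909), a surface protein induced by interferon, at 532 ± 210 CPM with treatment (SD, n = 7) and 222 ± 128 CPM with control antibody (SD, n = 4), and to H2-DMa (r 0.864, rho 0.836), which loads peptides on MHC class II. Il4ra was closest to Tgfbr1 (r 0.938, rho 0.764) and Naaa (r 0.933, rho 0.782), Crlf2 to Tfrc (r 0.894, rho 0.755) and H2-M3 (r 0.886, rho 0.827), and Stat6 to Kif23 (r 0.940, rho 0.873) and Slc44a2 (r 0.925, rho 0.855).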

How the data were processed

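Counts of reads per gene, unnormalized, were deposited for all 11 libraries together. The tools named, per the submitters' processing notes, are HISAT2 2.10, SAMtools 1.15.1 and bcl2fastq 2.20.0.422, with the build GRCm38. Which counter was used, with which strand setting and annotation release, is not given in the sources used here. A row naming no gene held 0 counts and was left out. Groups followed the treatment label. The comparison was fitted in R 4.3.3 with edgeR 4.0.16 (quasi-likelihood test, robust dispersions, TMM, filterByExpr, Benjamini-Hochberg over 11389 genes, threshold 0.05), after a check on simulated data. Log2 CPM used a prior count of 2. Exon lengths came from GENCODE M21. Each library is from a separate mouse, and reads carry no molecular identifiers, so limits at 0 counts (3 counts) cover counting error only. Alternatives included DESeq2 1.42.0 and limma 3.58.1. Pairs of members were compared by exact permutation in Python 3.11.15. Marker lists were summed on the TMM scale, chosen after seeing the data in place of library totals. The members, lists and tests were chosen with earlier results of these data known. Genes were named by rule: all members, the 2 most abundant genes of each list, and the 2 tested genes at 10 CPM or more that correlated best with each member. Irak3, Jak2, Jak3, C1qa, C1qb, C1qc, Tpsb2 and the genes listed at or near 0 were named after their values were seen. STAT6 targets besides the 2 most abundant, named for their source cells or for being in a marker list, were also outside this rule.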

Additional observations from a re-analysis of the deposited data

Results flagged for a closer look

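By Dixon's criterion, which chance meets in about 1 in 20 groups, 1 library stood far from the others of its group for 4 of 19 combinations of group and gene. For Il7r and Il13 only 1 library of the group had any count, so the criterion was met by construction. Il1rap in treated 7 was 93.1 CPM, against 8.97 to 39.4 CPM in the other treated libraries. Stat6 in control 4 was 536 CPM, against 196 to 247 CPM in the other controls. Il7r in treated 1 was 2.35 CPM and Il13 in control 1 was 0.127 CPM, where the other libraries of the group had 0 counts.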

How the results depend on the processing

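Members called stayed at 0 under all 24 alternatives, and so did genes called, except with DESeq2 (79 genes). Il2rg, Il13ra1, Stat6 and Il4 kept their direction in every alternative fit. The other members turned in some. Crlf2 went from -0.04 to 0.14 with limma-voom, 0.081 with detected genes as a covariate, 0.087 with the identifier letters and 0.39 without control 3 and control 4, and ran from -0.16 to 0.16 leaving out 1 library. Il1rl1 went from -0.16 to 0.48 with the replicate block and 0.067 with the letters, and ran from -0.45 to 0.56 leaving out 1 library. Il1rap went to 0.0012 with the letters. Il4ra went from 0.52 to -0.24 with detected genes as a covariate and to -0.046 with the length and GC offset. The cause of these shifts was not tested. Same-numbered libraries did not deviate together (correlations from -0.116 to 0.0212, and no treated library correlated best with the control of its number). This gave no sign that the numbers pair the mice, but it cannot exclude a pairing with little effect on the counts. The replicate block left 0 genes called. With 4 controls and a coefficient of variation of 0.828 between libraries, precision is limited, and Il7r and Il13 were too low to test.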
